A study of Mus musculus with 8 samples.

Results

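Carbidopa inhibits aromatic-L-amino-acid decarboxylase, the product of Ddc. The genes described here are Ddc and 7 other genes of monoamine and vitamin B6 metabolism, 8 named genes in all, among 50578 genes of the count table. They were found by symbol, and 7 of them had a row in the table: Ddc, Th, Tph1, Hdc, Maoa, Maob and Pdxk. Pdxp had none and was not analysed here. Read counts alone decided which of the 7 could be tested: edgeR's filterByExpr kept Ddc, Maoa, Maob and Pdxk among 15154 genes, and Th, Tph1 and Hdc stayed below it.

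RNA-seq was performed on wild-type mouse embryonic fibroblasts (MEFs) of passage 3 to 5, isolated from the trunk tissue of C57BL/6J embryos without their organs. Control MEFs (labelled Control) were compared with MEFs kept in carbidopa, LY-364747 or CHIR-99021 at 10 µM, added 2 h after plating, in medium renewed every 3 days. There were 2 libraries per group and 8 in all, and the comparisons with MEF share the MEF libraries. LY-364747 is the spelling of the labels for the TGF-beta receptor inhibitor that the paper mostly writes LY-364947, and CHIR-99021 inhibits the kinase GSK3 and so activates Wnt signaling. The labels call the treated cells hepatic-like. The sources used here give neither the length of treatment for RNA-seq nor a vehicle for the control cells, and do not say whether replicates were separate MEF isolations, so the p-values measure the spread between these libraries, which may be technical.

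Monoamines are made from aromatic amino acids or histidine. Th hydroxylates tyrosine, Tph1 hydroxylates tryptophan, and Ddc removes the carboxyl group from the products to give dopamine and serotonin, while Hdc makes histamine directly from histidine. Maoa and Maob, neighbours on the X chromosome, encode the mitochondrial monoamine oxidases that break monoamines down. Ddc and Hdc need pyridoxal 5'-phosphate (PLP), the active form of vitamin B6. Pdxk phosphorylates vitamin B6 and Pdxp removes the phosphate again. Carbidopa carries a hydrazine group that binds PLP, which is why vitamin B6 enzymes were set beside its target.

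The promoters of Ddc and Maoa are shown because Ddc is the drug target and has more than 1 start site, and because Maoa was the member that differed with carbidopa. Each is the 250 bases before a RefSeq start site on GRCm38.p6, the assembly of mm10, read 5' to 3' on the strand of the gene. Capitals mark matches to any of 6 motifs on either strand.
Ddc distal start, chr11:11898145-11898394, minus strand: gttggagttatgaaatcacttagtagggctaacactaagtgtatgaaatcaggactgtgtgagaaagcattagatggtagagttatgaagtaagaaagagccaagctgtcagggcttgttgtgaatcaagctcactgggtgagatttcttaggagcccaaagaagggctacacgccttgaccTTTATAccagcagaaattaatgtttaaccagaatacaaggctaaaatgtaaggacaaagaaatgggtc
Ddc proximal start, chr11:11890409-11890658, minus strand: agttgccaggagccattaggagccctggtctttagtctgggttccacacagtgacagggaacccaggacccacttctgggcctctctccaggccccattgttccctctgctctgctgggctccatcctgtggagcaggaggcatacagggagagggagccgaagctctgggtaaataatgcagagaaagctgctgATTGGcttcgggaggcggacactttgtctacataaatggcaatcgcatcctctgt
Maoa, chrX:16619448-16619697, plus strand: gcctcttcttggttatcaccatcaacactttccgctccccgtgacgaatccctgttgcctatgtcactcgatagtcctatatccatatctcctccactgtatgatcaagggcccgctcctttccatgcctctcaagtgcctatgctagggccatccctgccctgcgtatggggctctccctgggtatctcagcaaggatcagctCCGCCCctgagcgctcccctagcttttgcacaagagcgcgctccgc
The motifs searched were the GC box (GGGCGG), the TATA box (TATAAA), the CCAAT box (the letters of its name), the cyclic AMP response element (TGACGTCA), the TCF/LEF element (CTTTGAT) and the SMAD element (GTCTAGAC). Of 32851 such windows in the RefSeq table, these were held by 32.7%, 12.4%, 33.8%, 1.55%, 3.21% and 0.167%. The distal Ddc window holds a TATA box match whose first printed base lies 68 bases before the start, and the proximal window, 7736 bases away, a CCAAT match at 55 bases. The Maoa window holds 1 GC box match, at 46 bases. None of the 3 windows holds the TCF/LEF or SMAD letters, which says only that these letters are not in them. Counts were summed per gene, so the start site in use was not measured.

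The libraries held 15039566 to 20504338 counts, and one model of all 4 groups was fitted in edgeR, with TMM scaling and the quasi-likelihood F-test. A gene was called at a Benjamini-Hochberg adjusted p under 0.05, over all genes tested. Levels are given as CPM, the counts-per-million value after TMM scaling, with SD (n = 2 libraries), or as RPM, the reads-per-million value without scaling. Carbidopa replicates differed most, by 34.6 times the chi-square value of sampling noise, against 4.31 to 9.21 in the other groups. All 12 fibroblast markers were detected, and their summed level was 41200 and 41400 CPM in MEFs and 9920 to 13700 CPM in treated cells. In each treatment 10 of them were called lower and 1 higher. Over all tested genes, 19.7% were lower and 18.0% higher with carbidopa, 17.2% and 13.7% with LY-364747, and 20.1% and 18.7% with CHIR-99021. Of the fibroblast markers, Fn1 had the most reads in MEFs, 259090 and 289544, against 41548 to 86672 in treated libraries. Pdgfra went the other way, with 3198 and 4086 reads in MEFs and 5890 to 8228 in treated libraries. Of 10 hepatocyte markers, 7 had at most 3 reads in every library and 0 passed the filter. The list summed to 0.451 and 1.04 CPM in MEFs and 0.611 to 1.18 CPM in treated cells. Within it, Alb had 2 and 0 reads in MEFs and 5 to 10 in treated libraries, Hnf4a had 1 and 2 in MEFs and 6 to 10, and Apob had 10 and 2 in MEFs and 0 to 6. In bulk libraries, fewer cells of a type and less RNA per cell cannot be told apart.

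Ddc (ENSMUSG00000020182, chromosome 11 of mm10, 11814101 to 11898144) was barely expressed. MEF replicates 1 and 2 had 15 and 22 reads of it. Carbidopa gave 34 and 26, LY-364747 gave 23 and 27, and CHIR-99021 gave 33 and 62. The MEF, carbidopa and LY-364747 values overlapped after scaling, while both CHIR-99021 libraries lay above the other 6, replicate 2 far above replicate 1. Of all tested genes, 76.2%, 52.2% and 64.5% did not overlap between CHIR-99021 and MEF, carbidopa and LY-364747. Per length, the mean level of Ddc over the 8 libraries was 0.380 RPKM (CPM per kilobase of exon), above 12.7% of the tested genes. In MEFs it was 1.27 ± 0.215 CPM, and with carbidopa 1.41 ± 0.274 CPM. The log2 fold change with carbidopa was 0.14 (SE 0.40, edgeR adjusted p = 0.803), and its 95% interval ran from -0.74 to 1.03. At this depth no change of the target transcript was detectable with its inhibitor, and the interval is wide. LY-364747 gave 1.36 ± 0.104 CPM and a log2 fold change of 0.10 (0.41, adjusted p = 0.879 from edgeR), with an interval from -0.80 to 1.01.

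With CHIR-99021, Ddc reached 2.75 ± 1.20 CPM and was called higher than in MEFs, with a log2 fold change of 1.10 (SE 0.38, edgeR adjusted p = 0.0416). This call depends on single libraries. The exact 95% interval of CHIR-99021 replicate 2, 2.83 to 4.73 RPM, lies above that of replicate 1, 1.35 to 2.76. Without replicate 2 the log2 fold change was 0.58 (adjusted p = 0.333), and without CHIR-99021 replicate 1 it was 1.50. The call was also lost without MEF replicate 1 or 2 (adjusted p = 0.193 and 0.114), without LY-364747 replicate 1 or 2 (0.0627 and 0.0617) and with DESeq2 (0.135), and held in 8 of 14 alternatives, the direction staying the same in all. Against carbidopa, Ddc was 0.96 higher with CHIR-99021 (standard error 0.36, adjusted p = 0.103 from edgeR) and against LY-364747 1.01 higher (0.36, 0.0968), neither of which passed. Both passed when no filter on low counts was used (adjusted p = 0.0357 and 0.0277).

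The remaining enzymes of monoamine synthesis were at the limit of detection. Th, Tph1 and Hdc together had 18 reads in all 8 libraries, 15 of the 24 counts were 0, and the highest was 4. A count of 0 allows up to 3 reads. Th (ENSMUSG00000000214, chromosome 7, 142892752 to 142931128), the first enzyme of dopamine synthesis, had 1 read in each carbidopa library and 0 in the other 6. Tph1 (ENSMUSG00000040046, chromosome 7, 46644641 to 46672537), the first enzyme of serotonin synthesis outside the brain, had 4 reads in MEF replicate 2, 3 in CHIR-99021 replicate 1, 1 in LY-364747 replicate 2 and 0 elsewhere. Hdc (ENSMUSG00000027360, chromosome 2, 126593667 to 126619299), which mast cells and basophils use to make histamine, had 2 and 0 reads in MEFs, 3 and 1 under carbidopa, 0 and 2 with LY-364747 and 0 in both CHIR-99021 libraries. No fold is given for these genes, because all groups lie at or near the 3 reads that a 0 allows. Without a filter on low counts, edgeR gave adjusted p-values of 0.676 for Th, 0.252 for Tph1 and 0.992 for Hdc with carbidopa.

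Most markers of cell types that make monoamines had few reads. Of 12 sympathoadrenal and neuronal markers, 6 had at most 3 reads in every library. The sum of the list was 31.3 and 34.7 CPM in MEFs and 5.45 to 7.54 CPM in treated cells, most of it from the neuronal growth genes Stmn2 and Gap43. In MEFs, Stmn2 had 318 and 410 reads and Gap43 had 84 and 99. Of 10 mast cell and basophil markers, the proteases Mcpt4, Tpsb2 and Tpsab1 had 0 reads in every library. Mcpt8, a basophil protease, had 13 and 6 reads in MEFs and 21 to 29 in treated libraries, and Gata2, a transcription factor of these and other cells, had 16 and 6 in MEFs and 27 to 46. Ms4a2, another marker of the list, went the other way, with 14 reads in each MEF library and 1 to 7 in treated libraries. The list summed to 2.32 and 3.49 CPM in MEFs and 3.71 to 4.54 CPM in treated cells. Of its 3 tested genes, 1 was called higher and 1 lower in each treatment. Over all tested genes, 18.0% were higher and 19.7% lower with carbidopa, 13.7% and 17.2% with LY-364747, and 18.7% and 20.1% with CHIR-99021.

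**Figure D1:**
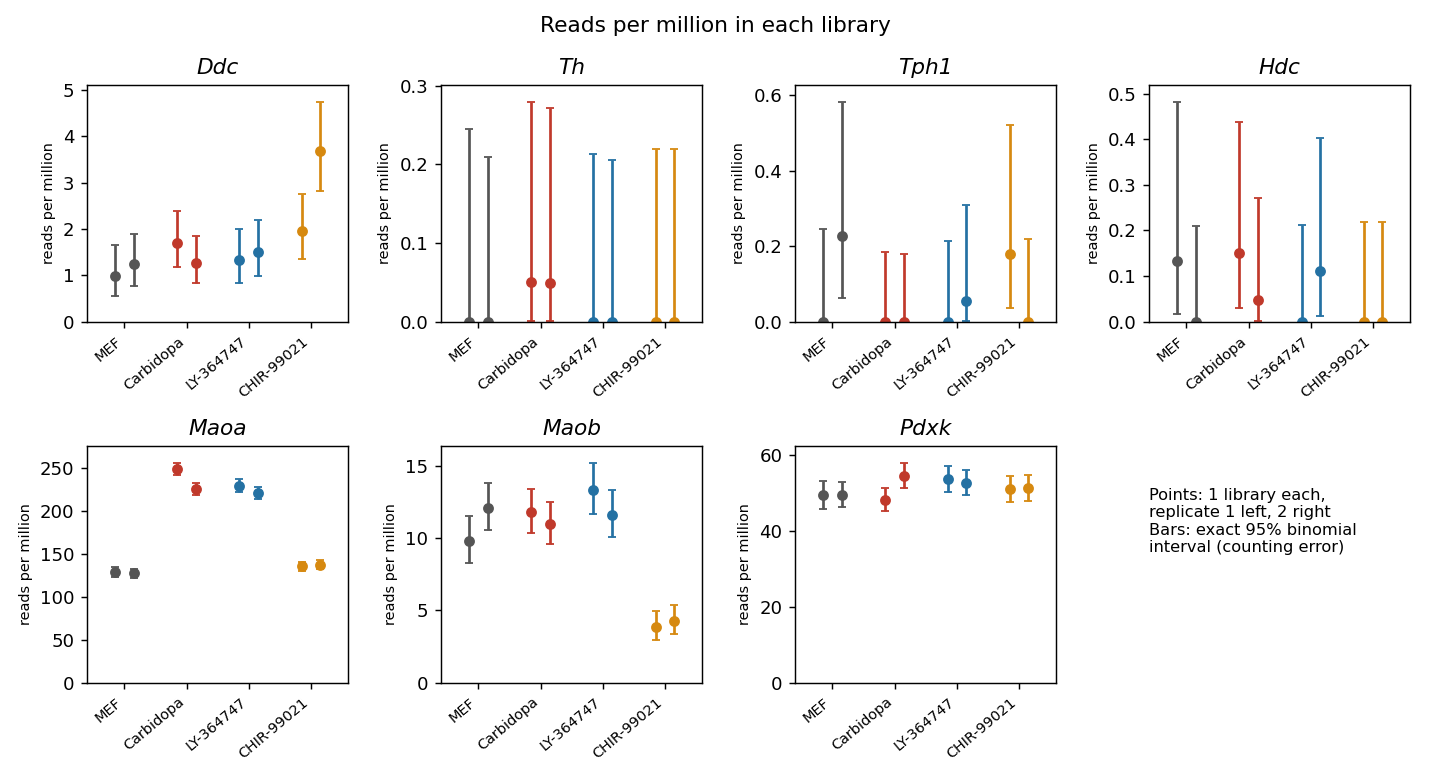
RPM (the reads-per-million value before TMM scaling, y axis) for the 7 genes with a row; each point is 1 library, bars are exact 95% binomial intervals that cover counting error only, and each panel has its own axis from 0. Ddc lies between 0.997 and 3.69 RPM with CHIR-99021 replicate 2 highest, Maoa separates carbidopa and LY-364747 (221 to 248) from MEF and CHIR-99021 (127 to 137), and Maob is lowest in the CHIR-99021 libraries.

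Maoa (ENSMUSG00000025037, chromosome X, 16619698 to 16687818) was the most abundant member and the only one called with carbidopa. This oxidase prefers serotonin and noradrenaline. It had 1942 and 2246 reads in MEFs, 4965 and 4617 under carbidopa, 3977 and 3972 with LY-364747 and 2273 and 2309 with CHIR-99021. The carbidopa and LY-364747 libraries all lay above both MEF libraries, with 68.9% and 72.7% of all tested genes also not overlapping with MEF in those comparisons. The level rose from 144 ± 0.366 CPM in MEFs to 224 ± 13.0 CPM with carbidopa, a log2 fold change of 0.63 (standard error 0.09, 1.55-fold, adjusted p = 4.84e-04 from edgeR). With LY-364747 it rose to 217 ± 8.25 CPM, a log2 fold change of 0.59 (0.09, 1.50-fold, adjusted p = 8.63e-04 from edgeR). Carbidopa and LY-364747 did not differ detectably from each other: the difference was -0.05 (adjusted p = 0.840 from edgeR), with an interval from -0.26 to 0.16. These calls held in all 14 alternatives, where the log2 fold change stayed between 0.57 and 0.69 with carbidopa and between 0.55 and 0.62 with LY-364747.

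With CHIR-99021, Maoa had 132 ± 2.21 CPM and was not called against MEF (log2 fold change -0.13, SE 0.10, interval -0.34 to 0.08, adjusted p = 0.315 from edgeR). Its sign depends on the scaling, since the unscaled pooled level was 136 RPM with CHIR-99021 and 128 in MEFs. Maoa was lower with CHIR-99021 than with carbidopa by -0.76 (0.09, adjusted p = 6e-04 from edgeR) and than with LY-364747 by -0.72 (0.09, 9.12e-04). Both CHIR-99021 libraries lay below the 4 libraries of the other treatments, where 52.2% (carbidopa) and 64.5% (LY-364747) of all tested genes did not overlap.

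Maob (ENSMUSG00000040147, chromosome X, 16709282 to 16817366), the oxidase with a preference for phenylethylamine, went a different way. It had 148 and 214 reads in MEFs, 236 and 225 under carbidopa, 232 and 209 with LY-364747 and 65 and 72 with CHIR-99021. Both CHIR-99021 libraries lay below all 6 others. In CPM the LY-364747 libraries (13.01 and 11.12) also lay above the carbidopa libraries (11.10 and 10.49), the nearest by a small margin. Of all tested genes, 76.2%, 52.2% and 64.5% did not overlap between CHIR-99021 and MEF, carbidopa and LY-364747. Between LY-364747 and carbidopa the share was 37.7%. Maob fell from 12.4 ± 1.98 CPM in MEFs to 3.96 ± 0.308 CPM with CHIR-99021, a log2 fold change of -1.65 (standard error 0.18, 3.14-fold lower, adjusted p = 6.46e-05 from edgeR). It was also lower with CHIR-99021 than with carbidopa (-1.45, standard error 0.18, adjusted p = 6.77e-04) and than with LY-364747 (-1.61, 0.18, 3.83e-04). The fall from MEF stayed between -1.80 and -1.48 in all 14 alternatives and passed in each. With carbidopa Maob had 10.8 ± 0.434 CPM (log2 fold change -0.20, interval -0.57 to 0.17, adjusted p = 0.362 from edgeR), and with LY-364747 12.1 ± 1.34 CPM (-0.04, interval -0.41 to 0.33, adjusted p = 0.874).

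The ratio of the oxidases was higher in every treated library than in the MEF libraries, a description with no test. Per length of exon, Maoa exceeded Maob 8.78 and 7.02 times in the MEF libraries, 14.1 and 13.7 times with carbidopa, 11.5 and 12.7 times with LY-364747 and 23.4 and 21.5 times with CHIR-99021. Carbidopa and LY-364747 cells had more Maoa, and CHIR-99021 cells had less Maob. The words of 75 bases in the transcripts of Maoa and Maob are not shared between these genes, and 1.17% of those of Maoa occur in other genes.

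Other measurements also differed between MEFs and treated libraries. Macrophage markers, 12 genes, summed to 1150 to 1190 CPM in MEFs and 356 to 372 CPM under carbidopa. They summed to 263 to 272 CPM under LY-364747 and 83.5 to 92.2 CPM under CHIR-99021. Xist, expressed from the inactive X chromosome of female cells, had 1230 and 1180 CPM in MEFs and 290 to 552 CPM in treated libraries. The 4 Y-linked genes Ddx3y, Eif2s3y, Kdm5d and Uty summed to 153 and 161 CPM in MEFs and 118 to 151 CPM in treated libraries, so every library held RNA of both sexes. The part of these lists in the values of Maoa and Maob was not tested.

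**Figure D2:**
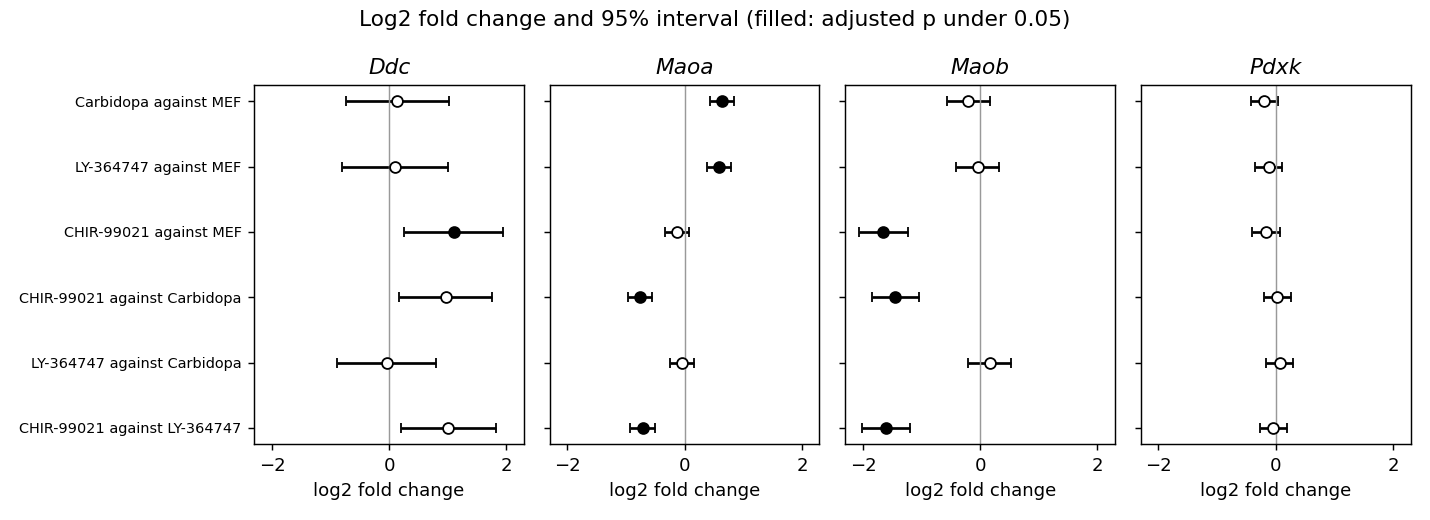
Log2 fold change (x axis) of the 4 tested members in each of the 6 comparisons (rows), from edgeR's fit of all 8 libraries; whiskers are 95% intervals and filled points have an adjusted p under 0.05. Maoa is to the right of 0 with carbidopa (0.63) and LY-364747 (0.59), Maob is to the left in the 3 comparisons of CHIR-99021 (-1.65 to -1.45), Ddc passes only for CHIR-99021 against MEF with an interval from 0.26 to 1.95, and Pdxk lies near 0 throughout.

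Pdxk (ENSMUSG00000032788, chromosome 10, 78436744 to 78464975), the kinase that makes PLP precursors from dietary vitamin B6, stayed within a narrow range. It had 741 and 870 reads in MEFs, 963 and 1116 under carbidopa, 927 and 944 with LY-364747 and 855 and 861 with CHIR-99021. In CPM this was 55.6 ± 0.732, 48.7 ± 4.75, 51.1 ± 1.24 and 49.6 ± 0.521, and the treated libraries were all below both MEF libraries. With carbidopa, LY-364747 and CHIR-99021, 68.9%, 72.7% and 76.2% of all tested genes also did not overlap with MEF, so nothing is read from this. The log2 fold changes were -0.19 with carbidopa (standard error 0.10, interval -0.42 to 0.04, adjusted p = 0.170 from edgeR), -0.12 with LY-364747 (0.10, -0.35 to 0.11, 0.421) and -0.17 with CHIR-99021 (0.10, -0.40 to 0.07, 0.237). Without TMM scaling the order turned, with 49.3 RPM pooled over MEFs and 51.3, 53.0 and 51.0 in the treatments. Without carbidopa replicate 2, the log2 fold change with carbidopa was -0.29 and was called (adjusted p = 0.0198). Of 5397 exon bases of Pdxk, 2104 also lie in exons of the antisense gene 4921516A02Rik, which was not analysed here. Whether the counting used strand is not given in the sources used here, so reads of that part could belong to either gene.

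Counted over the 4 tested members, 1 was higher and 0 were lower with carbidopa, where 37.7% of all tested genes were called (18.0% higher, 19.7% lower). With LY-364747 the counts were 1 and 0, against 31.0% of all genes, and with CHIR-99021 1 and 1, against 38.8%. Against carbidopa, CHIR-99021 had 0 members higher (6.62% of all genes) and 2 lower (8.08%, 14.7% called in all). Against LY-364747 it had 0 higher (6.45%) and 2 lower (7.69%, 14.1% in all). In CPM, CHIR-99021 did not overlap with MEF in 4 of 4 members (76.2% of all genes), with carbidopa in 3 (52.2%) and with LY-364747 in 4 (64.5%), shares so high over all genes that nothing is read from them. Between LY-364747 and carbidopa, 0 of 4 members were called by edgeR and 0 by DESeq2, with 0 at an unadjusted p under 0.05, where 0.0132% of all genes were called. Per length, the order of levels was Maoa, Pdxk, Maob and Ddc in every library.

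**Figure D3:**
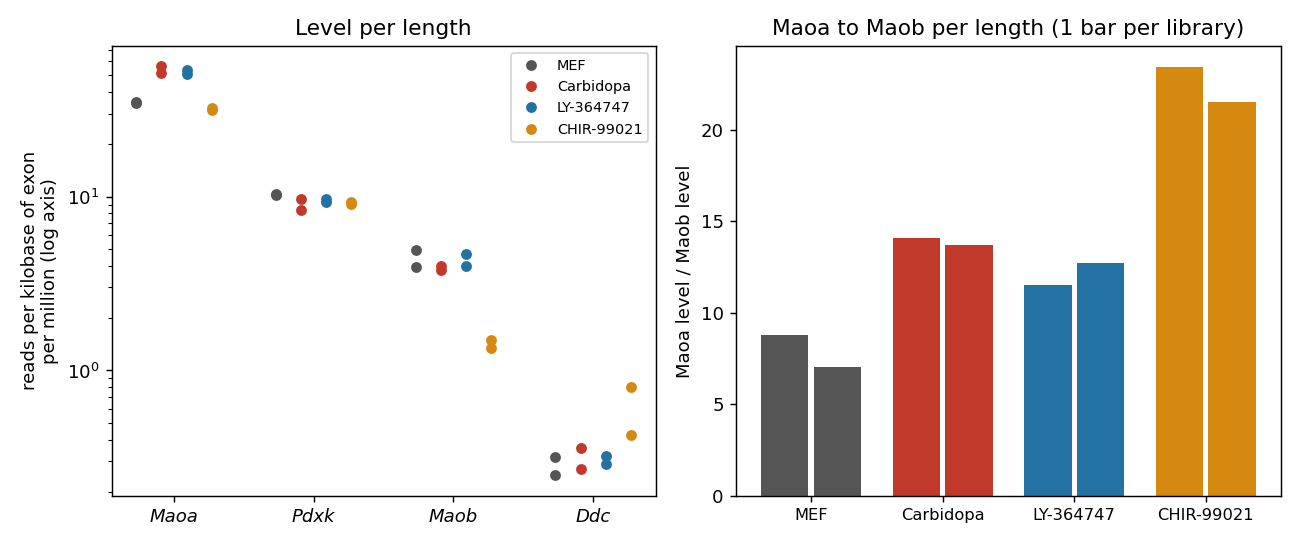
Left, level of the 4 tested members in RPKM after TMM scaling, on a log axis, with 1 point per library. Right, the level of Maoa divided by that of Maob, with 1 bar per library, from 7.02 and 8.78 in MEFs to 21.5 and 23.4 with CHIR-99021.

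The wider pathway was described by 6 lists of 121 further genes, 72 of which passed the filter. With carbidopa 17 of the 72 were higher (23.6%, against 18.0% of all tested genes) and 16 lower (22.2%, against 19.7%), with a median log2 fold change of 0.11 against 0.0373 over all genes. With LY-364747 15 were higher (20.8%, against 13.7%) and 14 lower (19.4%, against 17.2%), with medians of -0.006 and 0.0279. With CHIR-99021 17 were higher (23.6%, against 18.7%) and 16 lower (22.2%, against 20.1%), with medians of 0.08 and 0.0433. Of the other 49 genes, 10 had 0 reads in every library, and the rest had at most 11 reads in any. Without MEF replicate 1 or 2 these counts dropped by over 1.5 times with carbidopa (33 called in all, 20 and 21 without MEF replicates 1 and 2) and with LY-364747 (29 called in all, 18 without either), and with CHIR-99021 without MEF replicate 1 (33 and 20). Leaving out a treated library did so for LY-364747 (19 and 18 without replicates 1 and 2) and for CHIR-99021 (21 without replicate 1).

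Of the synthesis and cofactor genes, 5 of 13 could be tested, and all 5 make or recycle tetrahydrobiopterin, the cofactor that Th and Tph1 need. Carbidopa raised 2 and lowered 0 of them, and LY-364747 and CHIR-99021 each raised 1 and lowered 1. Over all tested genes, 18.0% were higher and 19.7% lower with carbidopa, 13.7% and 17.2% with LY-364747, and 18.7% and 20.1% with CHIR-99021. Spr, which encodes sepiapterin reductase, the last enzyme of the pathway, had 149 and 145 reads in MEFs, 660 and 370 under carbidopa, 299 and 376 with LY-364747 and 363 and 256 with CHIR-99021. All 6 treated libraries were above the MEF libraries, in comparisons where 68.9%, 72.7% and 76.2% of all tested genes did not overlap with MEF. The log2 fold changes of Spr were 1.24 (adjusted p = 0.00536 from edgeR), 0.85 (0.0392) and 0.81 (0.0405). Qdpr, which recycles the cofactor, rose by 0.51 with carbidopa (adjusted p = 0.0367), with 0.19 for LY-364747 (0.428) and 0.16 for CHIR-99021 (0.500). Gch1, the first and rate-limiting enzyme, fell with LY-364747 (log2 fold change -1.10, edgeR adjusted p = 0.00361), with -0.48 for carbidopa (0.0957) and -0.21 for CHIR-99021 (0.472). Pts, the next enzyme, fell with CHIR-99021 (-0.69, adjusted p = 0.00332), with -0.04 for carbidopa (0.848) and 0.12 for LY-364747 (0.543). The enzymes that follow dopamine were at the limit of detection, Dbh with 0 to 2 reads and Pnmt with 0 or 1.

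Of 12 further genes of monoamine breakdown, 10 were tested. Carbidopa raised 4 and lowered 1 (over all tested genes 18.0% were higher and 19.7% lower). LY-364747 raised 4 and lowered 0 (13.7% and 17.2%), and CHIR-99021 raised 3 and lowered 0 (18.7% and 20.1%). The gene lowered with carbidopa was Hnmt (log2 fold change -1.37, edgeR adjusted p = 0.022), with -0.53 for LY-364747 (0.328) and -0.58 for CHIR-99021 (0.256). It had 17 and 22 reads in MEFs and 10 and 12 under carbidopa. The risers included the dehydrogenases that take the aldehydes left by monoamine oxidase to acids. Aldh3a2 had 535 and 453 reads in MEFs and 1175 to 1794 in treated libraries, and its log2 fold changes were 1.27 with carbidopa, 1.22 with LY-364747 and 1.01 under CHIR-99021 (edgeR adjusted p = 4.89e-05, 6.78e-05 and 2.3e-04). Aldh1a1, better known for retinoic acid synthesis, rose by 1.48 with carbidopa and 1.31 with LY-364747 (adjusted p = 5.22e-04 and 0.00137), with 0.23 for CHIR-99021 (0.492). Aldh2 rose in all 3 treatments (0.77, 0.61 and 0.75, adjusted p = 0.0086, 0.028 and 0.00872). Inmt, which methylates indole amines, had 2 and 0 reads in MEFs and 15 to 49 in treated libraries. It was at least 8.22-fold higher with carbidopa, 4.88-fold with LY-364747 and 7.35-fold with CHIR-99021, when MEFs were set at 3 reads per library.

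Of 12 transporters, 6 were tested. Carbidopa raised 1 and lowered 3 (over all tested genes 18.0% were higher and 19.7% lower), LY-364747 raised 0 and lowered 3 (13.7% and 17.2%), and CHIR-99021 raised 1 and lowered 3 (18.7% and 20.1%). The gene that rose was Slc29a4, a monoamine transporter of the plasma membrane, with 14 and 4 reads in MEFs and 23 to 51 in treated libraries. It changed by 1.55 with carbidopa and 1.90 with CHIR-99021 (edgeR adjusted p = 0.0469 and 0.0182), and by 1.48 with LY-364747, which missed the threshold (0.0679). Slc7a8, a carrier of large neutral amino acids, had 181 and 231 reads in MEFs, 58 and 83 under carbidopa, 66 and 64 with LY-364747, and 30 and 22 with CHIR-99021. In that order it changed by -2.10, -1.99 and -3.23 on the log2 scale (adjusted p = 3.51e-05, 5.58e-05 and 3.7e-06 from edgeR). Slc7a5, another such carrier, which also takes up levodopa, fell too, with changes of -0.78, -0.77 and -1.06 (adjusted p = 7.2e-04, 8.12e-04 and 8.53e-05). Slc18a2, which loads monoamines into vesicles, had 112 to 117 reads in MEFs and 67 to 88 in treated libraries, with log2 fold changes of -1.22, -0.82 and -0.83 (adjusted p = 0.00109, 0.0105 and 0.00889). Slc7a8 was lower with CHIR-99021 than with carbidopa by -1.13 (adjusted p = 0.0176) and than with LY-364747 by -1.24 (0.0122).

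Monoamine receptors moved in both directions. Of 33 genes, 12 were tested. Carbidopa raised 3 and lowered 5 (over all tested genes 18.0% were higher and 19.7% lower). LY-364747 raised 4 and lowered 3 (13.7% and 17.2%), and CHIR-99021 raised 5 and lowered 5 (18.7% and 20.1%). Adra2a, the alpha-2A adrenergic receptor, had 64 and 67 reads in MEFs, 1170 and 1160 under carbidopa, 1029 and 1097 with LY-364747 and 453 and 471 with CHIR-99021. It rose 12.0-fold, 12.8-fold and 5.89-fold (log2 fold changes 3.59, 3.68 and 2.56, adjusted p = 1.53e-08, 1.3e-08 and 1.67e-07 from edgeR). The rise was smaller with CHIR-99021 than with carbidopa, by -1.03 (adjusted p = 1.56e-04), and than with LY-364747, by -1.12 (1.1e-04). Adra1d, an alpha-1 adrenergic receptor, fell in all 3 treatments (-2.26, -2.52 and -2.15, adjusted p = 5.71e-05, 3.54e-05 and 8.53e-05). Htr2b, a serotonin receptor, also fell in all 3 (-2.80, -1.64 and -1.06, adjusted p = 2.52e-04, 0.00447 and 0.0275). The dopamine receptors Drd2 and Drd5 and the trace amine receptor Taar1 had 0 reads in every library.

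All 4 further genes of vitamin B6 handling were tested. Carbidopa raised 2 and lowered 1 (over all tested genes 18.0% were higher and 19.7% lower). LY-364747 raised 1 and lowered 0 (13.7% and 17.2%), and CHIR-99021 raised 1 and lowered 1 (18.7% and 20.1%). Alpl, the alkaline phosphatase that frees vitamin B6 from PLP outside cells and is also a bone marker, had 1 and 2 reads in MEFs, 46 and 39 under carbidopa, 30 and 24 with LY-364747 and 10 and 12 with CHIR-99021. It was at least 9.56-fold, 7.11-fold and 3.05-fold higher than in MEFs set at 3 reads per library. Alpl was lower with CHIR-99021 than with carbidopa by -1.64 (adjusted p = 0.015 from edgeR). Aox1, an oxidase that turns pyridoxal to its excreted acid, fell with carbidopa and CHIR-99021 (-0.70 and -0.72, adjusted p = 0.00833 and 0.00696), with -0.34 for LY-364747 (0.151).

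Of 47 other PLP-dependent enzymes, 35 were tested. Carbidopa raised 5 and lowered 6 (31.4% called, against 37.7% of all genes), LY-364747 raised 5 and lowered 7 (34.3%, against 31.0%), and CHIR-99021 raised 6 and lowered 6 (34.3%, against 38.8%), shares near those of all genes. Abat, which breaks down the transmitter GABA, had 682 and 818 reads in MEFs, 1996 and 2698 under carbidopa, 2412 and 2578 with LY-364747 and 1168 and 1203 with CHIR-99021. It rose by 1.09, 1.40 and 0.40 on the log2 scale (adjusted p = 1.32e-04, 2.3e-05 and 0.036 from edgeR). Cth, which makes cysteine from cystathionine, fell with carbidopa, LY-364747 and CHIR-99021 (-1.62, -1.48 and -1.63, adjusted p = 9.4e-04, 0.0018 and 9.81e-04). Odc1, the first enzyme of polyamine synthesis, fell with carbidopa and LY-364747 (-0.38 and -0.89, adjusted p = 0.0271 and 2.48e-04), with 0.32 for CHIR-99021 (0.0541). Gpt2, a mitochondrial alanine transaminase, fell in all 3 treatments (-0.85, -0.64 and -0.45, adjusted p = 4.09e-04, 0.00277 and 0.0159). Bcat1, which starts the breakdown of branched-chain amino acids, fell with carbidopa and LY-364747 (-0.75 and -0.81, adjusted p = 0.00185 and 0.0013), with -0.15 for CHIR-99021 (0.424). Oat, which transaminates ornithine, fell with LY-364747 and CHIR-99021 (-0.31 and -0.57, adjusted p = 0.0293 and 8.73e-04), with -0.24 for carbidopa (0.0612). Mocos, which completes the molybdenum cofactor of Aox1, rose in all 3 treatments (0.68, 0.41 and 0.85, adjusted p = 0.00256, 0.0386 and 5.74e-04). Gad1, which makes GABA, and Tat, which breaks down tyrosine in the liver, had 0 reads in every library.

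**Figure D4:**
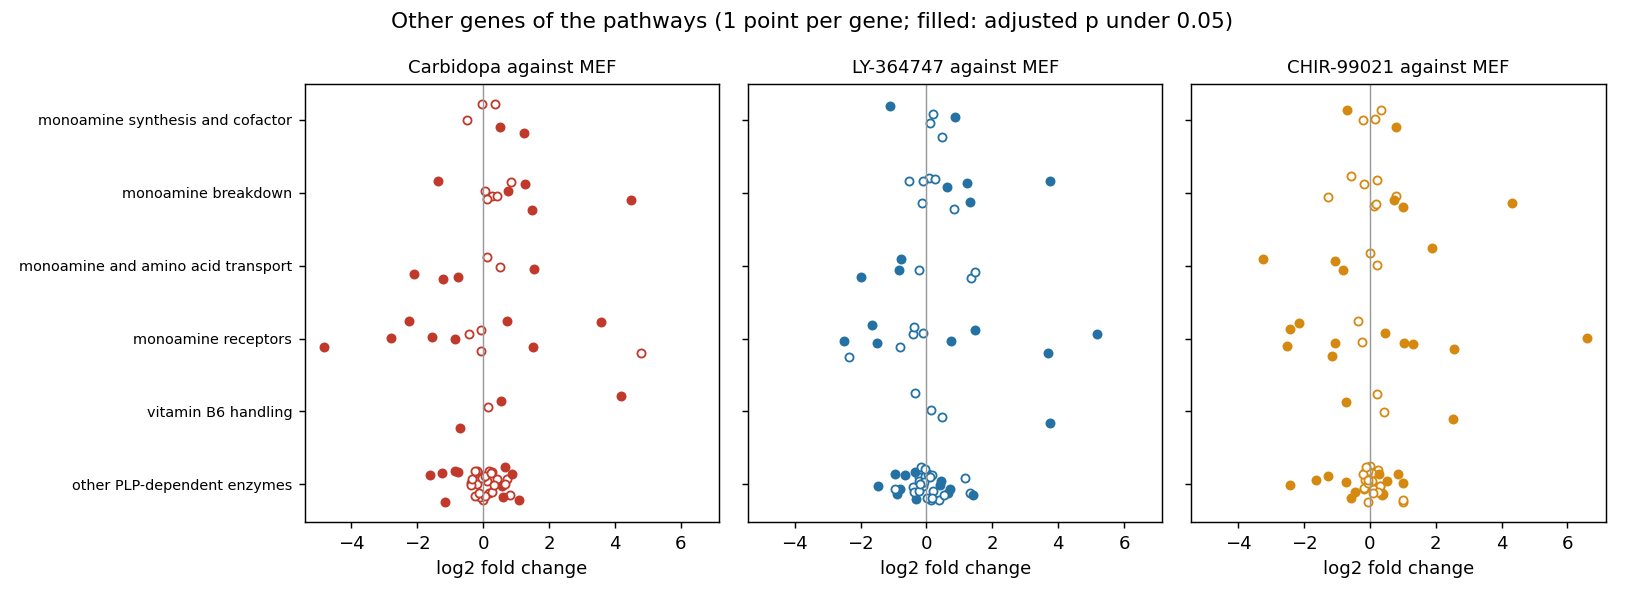
Log2 fold change (x axis) of the 72 tested genes of the 6 lists (rows, spread vertically for display) in the 3 comparisons with MEF; filled points have an adjusted p under 0.05. Called genes lie on both sides of 0 in most lists, 17 higher and 16 lower with carbidopa, 15 and 14 with LY-364747 and 17 and 16 with CHIR-99021; the fitted values of Inmt, Alpl and Htr5b, which had at most 3 reads in each MEF library, are no measured folds.

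The genes most like each member were taken by the Pearson correlation of log2 CPM over the 8 libraries, as a description, since libraries of one group share their treatment. For Maoa these were Pamr1 (0.991), Smoc2 (0.991) and Dmrt2 (0.988), among 76 genes above 0.95. Their log2 fold changes with carbidopa were 2.22, 1.02 and 2.23, larger than that of Maoa. For Maob they were Aplp2 (0.993), Ccna2 (0.991) and Nsdhl (0.990), among 120 genes above 0.95. Ccna2, a cyclin of dividing cells, changed by -2.02 with CHIR-99021, and Aplp2 by -0.41. For Pdxk they were Ocrl (0.993), Mamld1 (0.991) and Lyst (0.988). For Ddc only Tmem88 was above 0.95 (0.969), followed by Fosb (0.945) and Gm16314 (0.933).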

How the data were processed

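RNA-seq libraries of MEFs and of MEFs treated with carbidopa, LY-364747 or CHIR-99021 were analysed, 2 per group. The deposited values are whole-number counts per gene without normalization, which the authors obtained by STAR 2.4.2a alignment against mm10 and featureCounts. The annotation release and the use of strand in counting are not given in the sources used here. Of the identifiers, 50354 (99.6%) were found in GENCODE M21 (GRCm38), which gave positions and exon lengths. Every sample column was mapped to a label.

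The counts were analysed in R 4.3.3 with edgeR 4.0.16 (filterByExpr, TMM, quasi-likelihood test, a group term and no covariate, 8 libraries together) and Benjamini-Hochberg adjustment over all genes tested. Standard errors were taken from the fold change and its F statistic. The biological coefficient of variation was 11.0%. Levels per length used merged exons. Intervals of single libraries are exact (Clopper-Pearson, 95%). Without molecular identifiers reads can be copies of one molecule, and these intervals and floors therefore cover counting error only. No replicate pair agreed within sampling noise.

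The members, the gene lists and the tests were chosen with earlier results of these data known. Named were all members, up to 3 called genes of each list with the smallest p in each comparison with MEF, the 3 nearest patterns, and list genes at 0. Other genes (Dbh, Pnmt, Slc29a4, Xist and single markers) were named after their values were seen, and some genes that the rule names are not reported here. The alternatives were DESeq2 1.42.0, RLE size factors, no filter, at least 10 reads in every library, a replicate block, each pair of groups fitted separately, and omission of each library in turn. The fits were also run on simulated counts, with changes in the carbidopa group alone and in far fewer genes than were called here. Nothing is read from that run. Promoters are from RefSeq (GRCm38.p6), where 7 of the 8 members had a window. Maob had none.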

Additional observations from a re-analysis of the deposited data

Results flagged for a closer look

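The oxidases responded differently to the compounds, by direct tests of the difference in edgeR's fit. Maoa differed between CHIR-99021 and carbidopa by -0.76 on the log2 scale (adjusted p = 6e-04) and between CHIR-99021 and LY-364747 by -0.72 (9.12e-04), with changes from MEF of -0.13, 0.63 and 0.59 for CHIR-99021, carbidopa and LY-364747. Maob differed by -1.45 (6.77e-04) and -1.61 (3.83e-04), with changes from MEF of -1.65, -0.20 and -0.04. Each direction held in both libraries of the groups compared. The comparisons with MEF share the MEF libraries.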

How the results depend on the processing

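Of 336 log2 fold changes of the 4 tested members under the alternatives, 317 kept their direction and their side of the threshold, 6 lost a call, 3 gained one and 10 changed sign without a call on either side. All 6 losses were Ddc with CHIR-99021 against MEF. The gains were Ddc against carbidopa (0.96) and LY-364747 (1.02) without a filter, and Pdxk with carbidopa (-0.29) without carbidopa replicate 2. With a library left out, the lone library of an arm was taken to vary like the other groups. The sign changes all came from leaving out 1 library and were small: Ddc with carbidopa ran from -0.071 to 0.327 (-0.015 without MEF replicate 1), with LY-364747 from -0.058 to 0.287 and between these treatments from -0.229 to 0.169 (0.039 without LY-364747 replicate 1). Maob with LY-364747 ran from -0.196 to 0.13 (0.065 without LY-364747 replicate 2), Maoa between LY-364747 and carbidopa from -0.106 to 0.012, and Pdxk from -0.066 to 0.133 for CHIR-99021 and from -0.027 to 0.173 for LY-364747 against carbidopa. The cause was not tested.

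With DESeq2, 1 member was called with CHIR-99021 against MEF instead of 2. With libraries left out in turn, 1 to 2 members were called with carbidopa and 1 to 2 with CHIR-99021, and the 72 tested genes of the lists gave 20 to 42 calls with carbidopa, 18 to 40 with LY-364747 and 20 to 40 with CHIR-99021. Over all genes, LY-364747 against carbidopa gave 2 calls, 15 with DESeq2, 329 without a filter, 0 with only the groups compared and 3816 without carbidopa replicate 2. CHIR-99021 against carbidopa gave 2227 calls and 715 to 4632 with libraries left out, and 1027 with only the groups compared. CHIR-99021 against LY-364747 gave 2143, 663 to 4228 and 3673. Against MEF, 5717, 4694 and 5878 genes were called with carbidopa, LY-364747 and CHIR-99021, and 3142 to 7996, 2841 to 6519 and 3433 to 7800 with 1 library left out. RLE scaling moved the median of all genes by at most -0.0367.

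The labels number replicates 1 and 2 in each group but do not say that a number marks a shared culture. Deviations of same-numbered libraries correlated by -0.161 to 0.128 between groups. With 2 libraries per group this cannot show whether any libraries share a culture. With the replicate block, the members called were 1 with carbidopa, 1 with LY-364747 and 2 with CHIR-99021, and the list genes 32, 28 and 33. With the numbers of LY-364747 swapped, an alternative chosen after seeing the data, the members called were again 1, 1 and 2. Over all genes against MEF, the block gave 5473 calls with carbidopa and 4424 with LY-364747. The swapped block gave 6581 and 5432, against 5717 and 4694 without a block. Depth limits what can be said of Ddc, Th, Tph1 and Hdc.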
